A study of Mus musculus with 32 samples.

Results

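Krt6a, Krt6b, Krt16 and Krt17 are the stress keratins of the epidermis. They were matched by symbol to the gene identifiers of the read count tables, and they are 4 of 55401 genes listed and 4 of 54 genes with a keratin symbol. All 4 passed the filter of at least 1 cpm (counts scaled to a library of 1000000 gene reads) in at least 1 mouse. Epidermal RNA had been sequenced from 32 mice, in 8 groups of 4 defined by genotype, sex and treatment. The genotypes were wild-type and Ppard-/-, the latter carrying a disrupted gene for the nuclear receptor PPARβ/δ, and all mice were 10 to 14 weeks old on a hairless SKH-1 background crossed with Sv129 and C57BL6/J. UV groups received 120 mJ/cm2 once and were sampled 24 h later. Control groups were sham handled without irradiation and are labelled as time 0, so treatment and labelled time go together. Epidermis was separated from dorsal skin before RNA extraction, and each library came from 1 mouse. The series title calls the genotypes littermates, but no litter is given for any mouse. The deposited data hold a single UV dose and time, so no course of the response could be read from them.

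Keratins form intermediate filaments from obligate pairs, in which an acidic type I chain joins a basic type II chain. Basal keratinocytes make KRT5 with KRT14, and differentiating suprabasal cells make KRT1 with KRT10. KRT6A and KRT6B, which are type II, and KRT16 and KRT17, which are type I, are made in hair follicles, nails and palmoplantar skin, and they appear in the epidermis between follicles after wounding, irradiation or inflammation. They are widely used as markers of the activated keratinocyte. KRT16 is known to limit innate immune signals in skin, and KRT17 is known for a role in cell growth and for its induction by interferon and interleukin signals.

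On the mouse reference build GRCm38 with the GENCODE M21 annotation, all 4 genes lie on the minus strand. Krt6a (ENSMUSG00000058354) spans chr15:101689910-101694307 with 9 exons, and Krt6b (ENSMUSG00000023041) spans chr15:101676023-101680287 with 9 exons. They are neighbours with a gap of 9622 bases and 0 annotated genes between them. Krt16 (ENSMUSG00000053797) spans chr11:100246091-100248902 with 8 exons, and Krt17 (ENSMUSG00000035557) spans chr11:100256217-100261029 with 8 exons. Their gap is 7314 bases, also with 0 annotated genes between them. The coding sequences of Krt6a and Krt6b matched at 97.8% of 1659 aligned bases, with 37 differences, whereas those of Krt16 and Krt17 matched at 78.9% of 1278 aligned bases.

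The sequences below show how far reads can tell the members of each pair apart. The first 2 lines give the 100 coding bases in exon 1 in which Krt6a and Krt6b differed most, written 5′ to 3′ on the coding strand, at chr15:101693826-101693925 for Krt6a and chr15:101679801-101679900 for Krt6b. Capitals mark the 7 differing bases.
Krt6a: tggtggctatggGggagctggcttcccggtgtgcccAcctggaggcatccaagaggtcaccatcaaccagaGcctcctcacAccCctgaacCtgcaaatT
Krt6b: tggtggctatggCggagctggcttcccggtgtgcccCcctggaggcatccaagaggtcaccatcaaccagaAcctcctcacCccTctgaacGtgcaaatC
The next 2 lines give the 100 coding bases in exon 6 in which Krt16 and Krt17 were most alike, at chr11:100246652-100246751 for Krt16 and chr11:100257475-100257574 for Krt17. Capitals mark the 5 differing bases.
Krt16: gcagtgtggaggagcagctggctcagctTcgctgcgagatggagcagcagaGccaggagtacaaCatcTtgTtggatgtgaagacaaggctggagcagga
Krt17: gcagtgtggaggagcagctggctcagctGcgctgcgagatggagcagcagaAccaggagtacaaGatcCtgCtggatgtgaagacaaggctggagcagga
Of all 100-base windows along the exons, 34% of those of Krt6a and 30.6% of those of Krt6b were shared letter for letter with another annotated gene. The share was 24.3% for Krt16, whose partners were Krt14 and the gene model Gm11597, and 0% for Krt17. Counting kept reads with a unique alignment, so the levels of Krt6a, Krt6b and Krt16 omit reads from such windows, and the split between Krt6a and Krt6b is uncertain. Gene models on the opposite strand overlap Krt6a (Gm49428 and Gm44342) and Krt6b (Gm44383). The strand setting of the counting is not given in the sources used here, and these models reached at most 36.0, 20.5 and 13.8 cpm after UV.

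Libraries held 22919428 to 40653581 reads assigned to genes, with a median of 27600228.5, and 31.4 to 38.8% of alignments were not unique. Markers of keratinocytes were all detected and summed to 66840 to 94876 cpm in control mice and 27700 to 48014 cpm after UV. Of these 8 markers, 2 rose and 5 fell in wild-type mice, and 3 rose and 4 fell in Ppard-/- mice. Most of the sum in wild-type controls was Krt1 and Krt10, with means of 27000 and 32537 cpm, which were 5111 and 7270 cpm after UV. Krt14 of the same list went from a mean of 5356 to 17499.5 cpm. Summed dermal fibroblast markers were 13.7 to 76.1 cpm in wild-type controls and 1.77 to 8.45 cpm after UV, without overlap. In Ppard-/- mice they were 2.23 to 97.3 cpm in controls and 6.42 to 2154 cpm after UV, with the highest value in the UV-exposed female 54F. Summed skeletal muscle markers ran from 3.41 to 2743 cpm over all mice, and summed sebocyte markers from 97.5 to 2719 cpm. Median muscle sums in controls and after UV were 445 and 15.2 cpm in wild-type mice and 75.3 and 64.4 cpm in Ppard-/- mice. Median sebocyte sums were 678 and 328 cpm in wild-type mice and 524 and 634 cpm in Ppard-/- mice. The part of such other tissue in the keratin levels was not tested. Ppard itself was read in every mouse. Its level was 87.3 to 105 cpm in wild-type controls and 70.3 to 88.9 cpm in controls labelled Ppard-/-, and 252 to 326 cpm and 175 to 239 cpm after UV, where the genotypes did not overlap. The genotype difference in Ppard passed the test after UV (log2 fold change -0.42 ± 0.07 (SE), edgeR adjusted p = 0.00114) and not in controls (-0.26 ± 0.07, adjusted p = 0.156). The labels do not state which part of the gene the allele lacks, so a count over the whole gene does not check the genotype labels.

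The first question was whether a single UV dose changed the stress keratins. All 4 were higher 24 h after UV in both genotypes, by 9.84 to 30.1-fold in wild-type and 8.28 to 23.7-fold in Ppard-/- mice, and no UV-exposed mouse overlapped a control mouse for any of them. Markers of other cell types moved with UV as well. Of 6 Langerhans and dendritic cell markers, 6 fell in wild-type and 5 in Ppard-/- mice, with summed levels of 244 to 1064 cpm in controls and 220 to 763 cpm after UV. Of 6 T cell markers, 5 fell in each genotype (18.1 to 102 and 12.8 to 47.0 cpm), and of 6 tested neutrophil and myeloid markers, 4 rose in each and 1 fell in Ppard-/- mice (29.7 to 64.3 and 30.4 to 150 cpm, with Elane at 0 in every mouse). Their part in the result was not tested. The type II members Krt6a and Krt6b had larger folds than the type I members Krt16 and Krt17 in both genotypes, a difference tested below as a ratio. UV moved much of the transcriptome: 34.5% of 15546 genes tested were called higher in wild-type and 37.3% in Ppard-/- mice, and 21.3% and 18.6% were higher without overlap. A call or a gap between groups was therefore common. By size of the fold the members ranked 168 (Krt6a), 196 (Krt6b), 347 (Krt16) and 436 (Krt17) of 15546 genes from the most increased in wild-type mice, and 234, 304, 623 and 531 in Ppard-/- mice.

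Krt6a, the most abundant stress keratin after UV, ranged in wild-type controls from 274 to 1687 cpm with a median of 645 (n = 8). In Ppard-/- controls it ranged from 83.1 to 2660 cpm with a median of 800 (n = 8). Control mice of the same genotype thus differed by up to 32 times, and by 17 times without the lowest mouse, female 44F, which stood apart from her group. After UV it was 19444 to 25362 cpm with a median of 22684 in wild-type mice, and 18625 to 27356 cpm with a median of 21265 in Ppard-/- mice. The lowest UV-exposed wild-type mouse was 11.5 times above the highest wild-type control, and the lowest UV-exposed Ppard-/- mouse 7.0 times above the highest Ppard-/- control. The log2 fold change was 4.91 ± 0.48 (SE) in wild-type mice (edgeR adjusted p = 5.05e-10) and 4.56 ± 0.47 in Ppard-/- mice (adjusted p = 1.60e-09).

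Krt6b, the near copy of Krt6a, ranged from 98.7 to 1965 cpm in wild-type controls with a median of 551. In Ppard-/- controls it ranged from 6.80 to 3061 cpm with a median of 623, the lowest value being that of female 44F and the highest that of male 44M. Without 44F the lowest was 114 cpm. After UV the range was 10506 to 17397 cpm with a median of 14678 in wild-type mice and 9469 to 20796 cpm with a median of 14704 in Ppard-/- mice. It was thus the member that varied most before UV, and the gap between the closest control and UV-exposed mice was 5.35-fold in wild-type and 3.09-fold in Ppard-/- mice. The log2 fold change was 4.55 ± 0.66 (SE) in wild-type mice (edgeR adjusted p = 5.88e-07) and 4.11 ± 0.64 in Ppard-/- mice (adjusted p = 2.21e-06).

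Krt16, a type I partner of the KRT6 chains, ranged from 289 to 2374 cpm with a median of 876 in wild-type controls and from 128 to 4037 cpm with a median of 1399 in Ppard-/- controls. After UV it was 10838 to 15354 cpm with a median of 13315 in wild-type mice and 9949 to 17289 cpm with a median of 12326 in Ppard-/- mice. The lowest UV-exposed mouse lay 4.56 times above the highest control in wild-type mice and 2.46 times in Ppard-/- mice, the smallest gap among the 4 genes. The log2 fold change was 3.68 ± 0.45 (SE) in wild-type mice (edgeR adjusted p = 3.07e-08) and 3.05 ± 0.43 in Ppard-/- mice (adjusted p = 4.95e-07).

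Krt17, the member with the narrowest range in control mice, lay between 501 and 1503 cpm with a median of 1086 in wild-type controls and between 626 and 1582 cpm with a median of 966 in Ppard-/- controls. After UV it was 7999 to 12897 cpm with a median of 9553 in wild-type mice and 7999 to 10874 cpm with a median of 9579 in Ppard-/- mice. Its fold was the smallest of the 4 in wild-type mice, but with the smallest standard error. The log2 fold change was 3.30 ± 0.21 (SE) in wild-type mice (edgeR adjusted p = 8.03e-14) and 3.25 ± 0.21 in Ppard-/- mice (adjusted p = 1.21e-13). Every call of the UV effect on the 4 genes was kept under each alternative scaling, filter and tool and without each mouse in turn. In bulk RNA, a change in the number of cells that make a transcript and a change in the RNA per cell cannot be told apart.

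**Figure D1:**
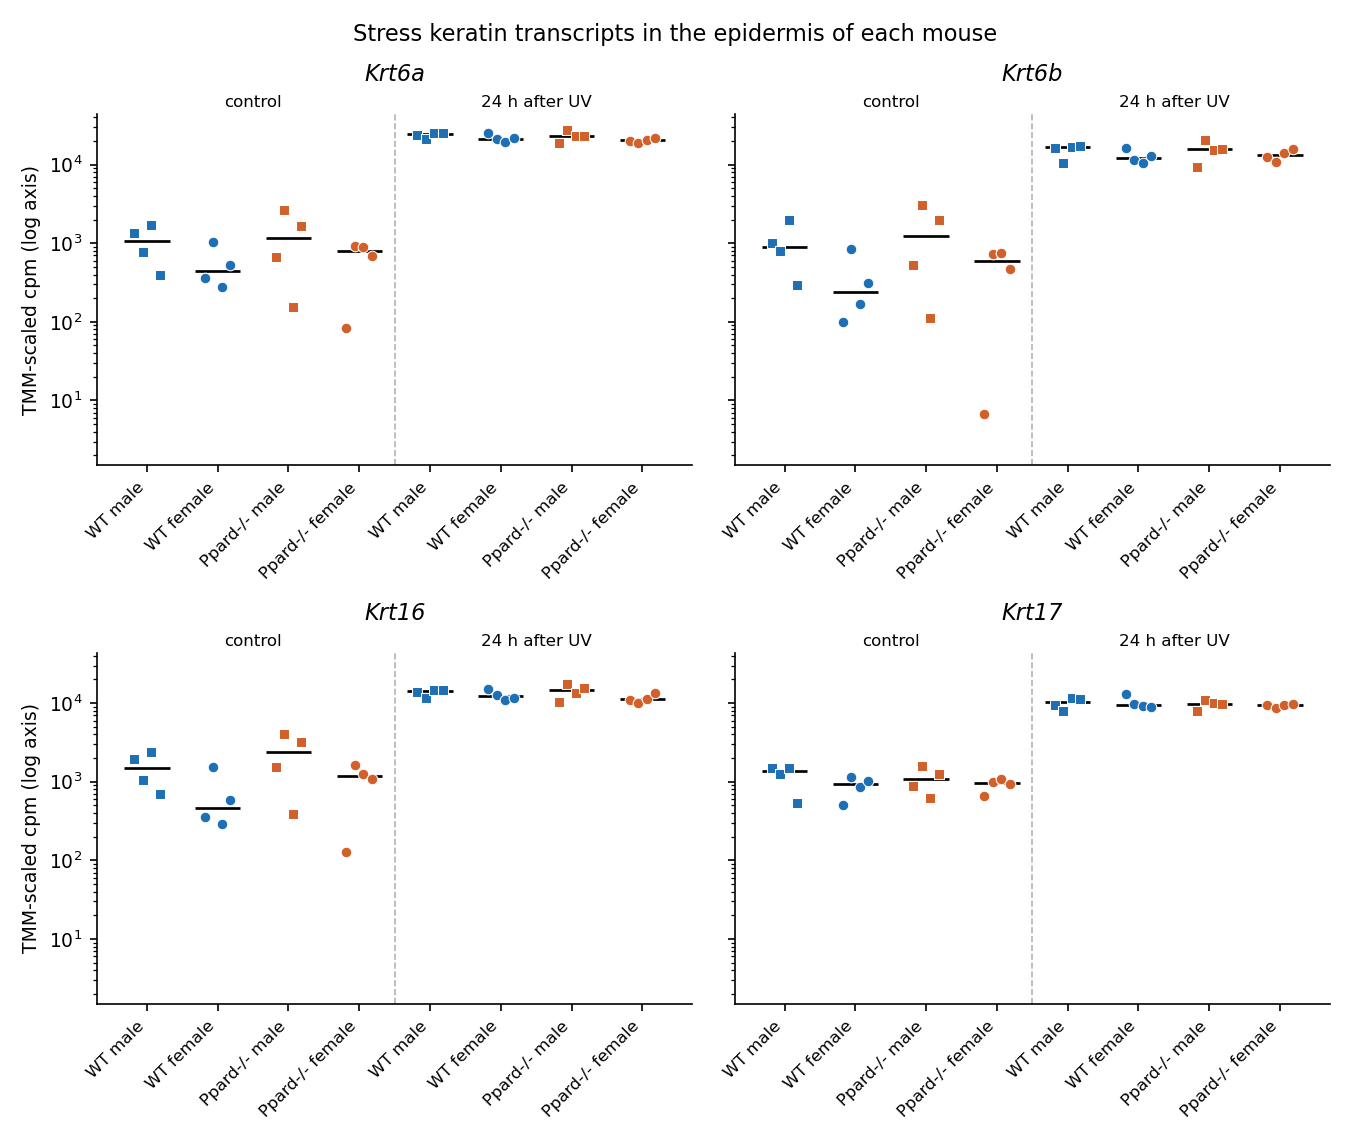
Level of Krt6a, Krt6b, Krt16 and Krt17 in each of the 32 mice, in cpm on a log axis, by genotype, sex and treatment. Each point is 1 mouse and each bar a group median. Control mice are scattered, down to 6.80 cpm for Krt6b in the Ppard-/- female 44F, and UV-exposed mice lie together between 7999 cpm (Krt17) and 27356 cpm (Krt6a).

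The 4 genes together took 0.144 to 0.731% of gene reads in wild-type controls and 0.0933 to 1.07% in Ppard-/- controls. After UV they took 5.14 to 6.93% and 4.22 to 7.01%. Per exon length, in reads per kilobase of exon scaled to library size (RPKM), mean levels in wild-type controls were 708 ± 496 (SD) for Krt16, 671 ± 251 for Krt17, 331 ± 213 for Krt6a and 306 ± 277 for Krt6b. Krt16 and Krt17 differed by less than their SD, as did Krt6a and Krt6b, while Krt17 and Krt6a differed by more. After UV the wild-type means were 9454 ± 963 RPKM for Krt6a, 8444 ± 1092 for Krt16, 6520 ± 1068 for Krt17 and 6297 ± 1320 for Krt6b. Krt6a thus went from the third of the 4 to the first. Its lead over Krt16 was smaller than the SD of Krt16, Krt16 lay above Krt17 by more than their SD, and Krt17 and Krt6b differed by less.

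Among 15533 genes ranked by mean RPKM, again without correction for shared windows, Krt6a went from rank 95 in wild-type controls to rank 2 after UV. Krt6b went from rank 101 to 6, Krt16 from 39 to 3 and Krt17 from 44 to 5. In Ppard-/- mice the ranks went from 88 to 3, 81 to 7, 31 to 5 and 51 to 8. After UV all 4 were therefore among the 8 most abundant transcripts per length in both genotypes. For comparison, in wild-type mice Krt10 went from rank 1 to 12, Krt1 from 3 to 32 and Krt14 from 11 to 1.

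The 4 strata of sex and genotype each showed the increase. For Krt6a the log2 fold change was 4.5 in wild-type males, 5.32 in wild-type females, 4.16 in Ppard-/- males and 4.97 in Ppard-/- females. For Krt6b it was 3.92, 5.18, 3.44 and 4.77 in the same order, for Krt16 3.18, 4.19, 2.63 and 3.47, and for Krt17 3.07, 3.53, 3.15 and 3.34. All 16 passed the test, and control and UV-exposed mice overlapped in none of them. In the 4 strata, 29.8%, 30.1%, 30.9% and 34% of genes were called higher, and 27.1%, 28.1%, 26.6% and 28.6% were higher without overlap.

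**Figure D2:**
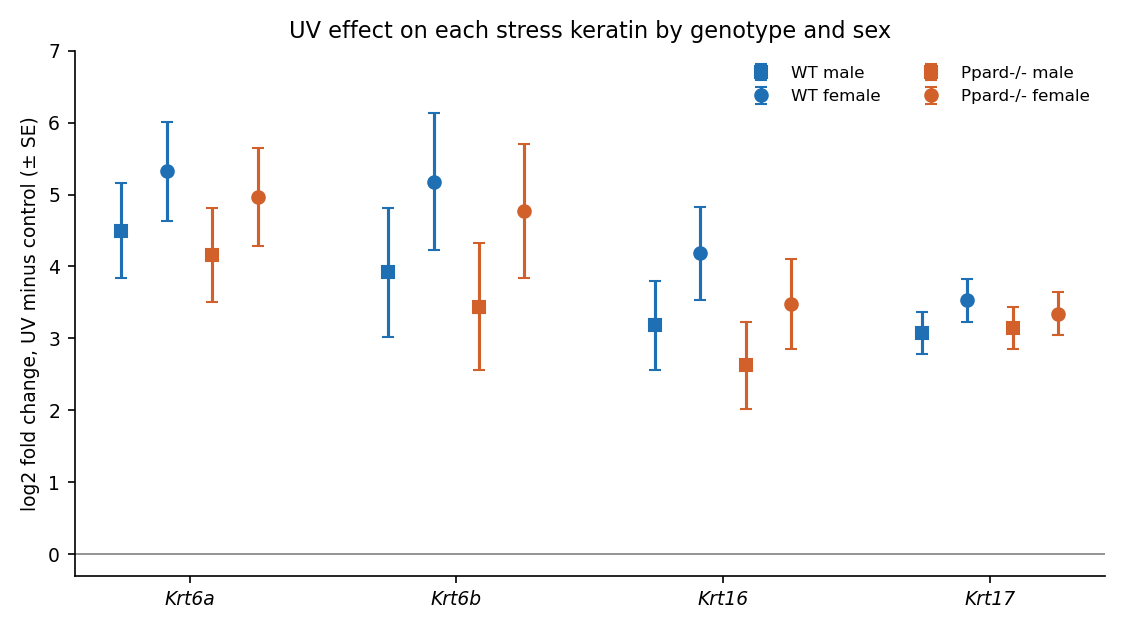
Log2 fold change (UV over control) of the 4 stress keratins in the 4 strata of sex and genotype. Points are edgeR estimates from 4 control and 4 UV-exposed mice each and bars are plus and minus 1 standard error. Estimates for females lie above those for males of the same genotype for each gene, a difference that did not pass the test, and run from 2.63 (Krt16, Ppard-/- males) to 5.32 (Krt6a, wild-type females).

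The larger estimates in females came with lower levels in control females, and neither difference passed the test. In wild-type control males Krt6b was at 291, 790, 1007 and 1965 cpm, and in wild-type control females at 98.7, 169, 312 and 840 cpm. In Ppard-/- control males it was at 114, 525, 1964 and 3061 cpm, and in Ppard-/- control females at 6.80, 476, 720 and 755 cpm. The sexes overlapped in each case. The log2 difference, female minus male, was -0.94, -1.51, -1.13 and -0.45 for Krt6a, Krt6b, Krt16 and Krt17 in wild-type controls (edgeR adjusted p = 0.80 to 0.85) and -0.99, -1.53, -1.15 and -0.25 in Ppard-/- controls (0.23 to 0.62). The test called 0.0708% of genes in wild-type and 3.85% in Ppard-/- controls.

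After UV the sexes were close. The female minus male difference in wild-type mice was -0.12, -0.25, -0.12 and 0.01 on the log2 scale (edgeR adjusted p = 1 for each), and in Ppard-/- mice -0.18, -0.20, -0.31 and -0.05 (0.76 to 0.92). Here 0.0772% and 13.3% of genes were called. Fitting the UV-exposed mice alone, which was chosen after seeing the data, gave intervals of plus and minus 2 SE for the female to male fold from 0.617 to 1.24 over the 4 genes in wild-type mice and from 0.641 to 1.19 in Ppard-/- mice. The sex-by-UV interaction was 0.82, 1.26, 1.01 and 0.46 in wild-type and 0.81, 1.33, 0.85 and 0.20 in Ppard-/- mice, with an adjusted p above 0.79 for each. The edgeR test called 0 of 15546 genes for this interaction in either genotype, with 419 and 1482 genes at an unadjusted p under 0.05. DESeq2 called 3 and 35 genes and limma 0 and 0.

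The second question was whether loss of Ppard changed the level of the stress keratins. In control mice the log2 difference, Ppard-/- minus wild-type, was 0.27 ± 0.41 (SE) for Krt6a, 0.47 ± 0.57 for Krt6b, 0.58 ± 0.40 for Krt16 and -0.04 ± 0.19 for Krt17 (edgeR adjusted p = 0.75 to 0.99). None of the 4 passed, and 0.206% of genes did. The genotypes overlapped for each gene, as their control ranges show. The fit of control mice alone left wide intervals (plus and minus 2 SE), with a fold of 0.567 to 2.55 for Krt6a, 0.492 to 3.91 for Krt6b, 0.714 to 3.12 for Krt16 and 0.698 to 1.35 for Krt17, so differences of that size were not detectable in these mice.

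After UV the genotype difference was -0.08 ± 0.41 (SE) for Krt6a, 0.03 ± 0.57 for Krt6b, -0.05 ± 0.40 for Krt16 and -0.09 ± 0.19 for Krt17 (edgeR adjusted p = 0.84 to 0.99), and 3.31% of genes were called. These standard errors rest on a dispersion shared with the scattered control mice. The fit of the 16 UV-exposed mice alone, chosen after seeing the data, gave -0.09 ± 0.09, 0.02 ± 0.16, -0.06 ± 0.11 and -0.10 ± 0.10 (adjusted p = 0.62 to 0.97). Its intervals for the fold ran from 0.831 to 1.06 for Krt6a, 0.815 to 1.26 for Krt6b, 0.816 to 1.12 for Krt16 and 0.806 to 1.07 for Krt17. Differences beyond those bounds were thus outside the intervals, while smaller differences remained possible. Without 54F, the mouse with the highest fibroblast marker sum, the 4 differences in the shared fit were -0.07, 0.06, -0.04 and -0.09.

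The UV effect in Ppard-/- minus that in wild-type mice was -0.35 ± 0.57 (SE) for Krt6a, -0.44 ± 0.80 for Krt6b, -0.63 ± 0.57 for Krt16 and -0.05 ± 0.27 for Krt17. None passed (edgeR adjusted p = 0.57 to 0.94), while 0.765% of genes did. The estimates moved when single mice were left out. Over all mice left out in turn, they ran from -0.59 to -0.03 for Krt6a and from -0.88 to -0.09 for Krt6b. The estimates for Krt16 ran from -1.02 to -0.42 and those for Krt17 from -0.19 to 0.07. Without female 44F they were -0.53, -0.65, -0.82 and -0.12 (adjusted p = 0.36 to 0.86), and without male 44M -0.03, -0.09, -0.42 and 0.06 (0.72 to 0.99).

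Control mice differed from each other far more, as a fold, than UV-exposed mice did. Within groups the standard deviation of log2 cpm of Krt6a was 1.38 in controls and 0.16 after UV. For Krt6b it was 2.15 and 0.34, for Krt16 1.32 and 0.23, and for Krt17 0.55 and 0.20. Over all 14915 genes with a value, the medians were 0.23 and 0.26, so that most genes showed no such narrowing. The ratio of control to UV spread was 8.62 for Krt6a, and no gene had a larger one. It was 6.30 for Krt6b, 5.67 for Krt16 and 2.71 for Krt17, and 0.0201%, 0.0268% and 1.17% of genes had a larger ratio. Leaving out each mouse in turn, an alternative added after seeing the data, left the ratio at 7.18 to 10.5 for Krt6a, 4.26 to 7.78 for Krt6b, 4.58 to 7.05 for Krt16 and 2.20 to 3.22 for Krt17. The lowest values for Krt6a, Krt6b and Krt16 came without 44F. The narrowing is on the log scale: in cpm the SD of Krt6a in wild-type mice was 514 before and 2328 after UV.

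**Figure D3:**
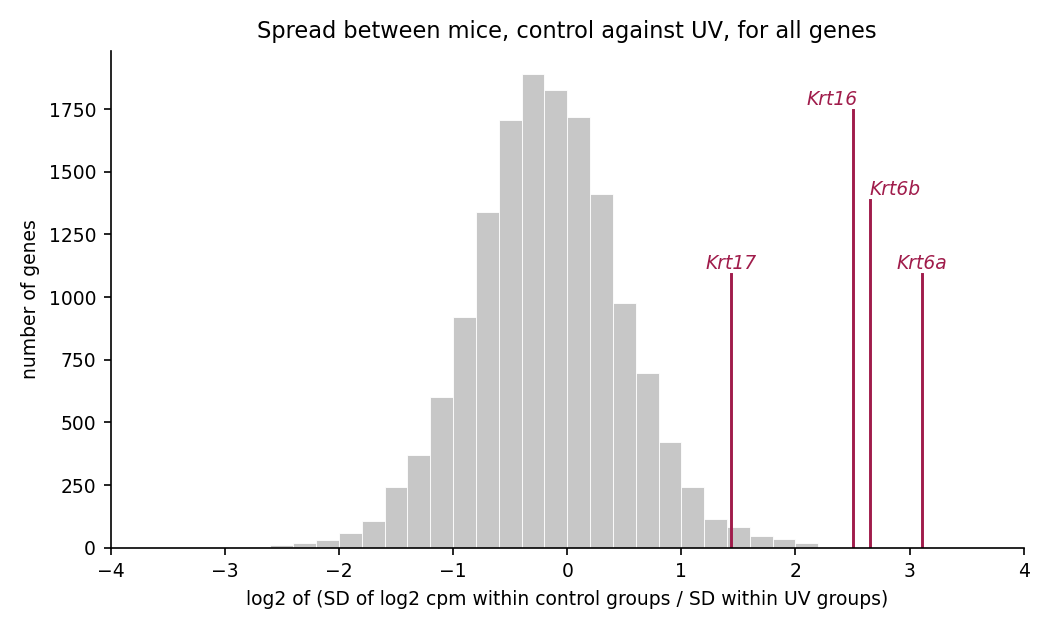
Distribution over 14915 genes of the ratio of the within-group standard deviation of log2 cpm in control mice to that in UV-exposed mice, on a log2 axis, with the 4 stress keratins marked by lines whose height has no meaning. 6 genes lie outside the axis. The median gene lies at 0.880, Krt17 at 2.71, Krt16 at 5.67, Krt6b at 6.30 and Krt6a at 8.62, at the right end.

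The same mice were often high or low for several of the genes. Male 44M (Ppard-/-) had the highest control level of each gene, and female 44F (Ppard-/-) the lowest control level of Krt6a, Krt6b and Krt16, whereas female 61F (wild-type) was lowest for Krt17. After UV, male 59M (Ppard-/-) was highest for Krt6a, Krt6b and Krt16 and female 51F (wild-type) for Krt17. With group means subtracted, Pearson's r between pairs of members over the 16 control mice ran from 0.76 (Krt6b with Krt17) to 0.98 (Krt6a with Krt16). Over the 16 UV-exposed mice it ran from 0.82 (Krt16 with Krt17) to 0.98 (Krt6a with Krt6b). These are descriptions across mice whose values share a library and its scaling.

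Because type I and type II chains pair in the filament, their transcript balance was compared within each mouse, which does not depend on library scaling. The ratio of Krt16 plus Krt17 to Krt6a plus Krt6b counts was 1.06 to 2.57 in wild-type controls with a median of 1.63, and 0.581 to 0.686 after UV with a median of 0.626. In Ppard-/- controls it was 0.982 to 8.82 with a median of 1.68, and 0.585 to 0.651 after UV with a median of 0.623. Type I reads thus outnumbered type II reads in 15 of 16 control mice and in 0 of 16 UV-exposed mice, and control and UV-exposed mice did not overlap. The ratio fell by 1.38 on the log2 scale in wild-type and by 1.73 in Ppard-/- mice (two-sided exact permutation test within sex, p = 0.000408 in each, the smallest the 4900 arrangements allow, adjusted p = 0.00306 over 15 ratio tests). The genotypes did not pass the exact permutation test in controls (p = 0.458), after UV (p = 0.469) or in the UV effect (p = 0.421). The counts are not corrected for gene length or for shared windows, so a ratio of 1 does not mean equal numbers of transcripts.

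**Figure D4:**
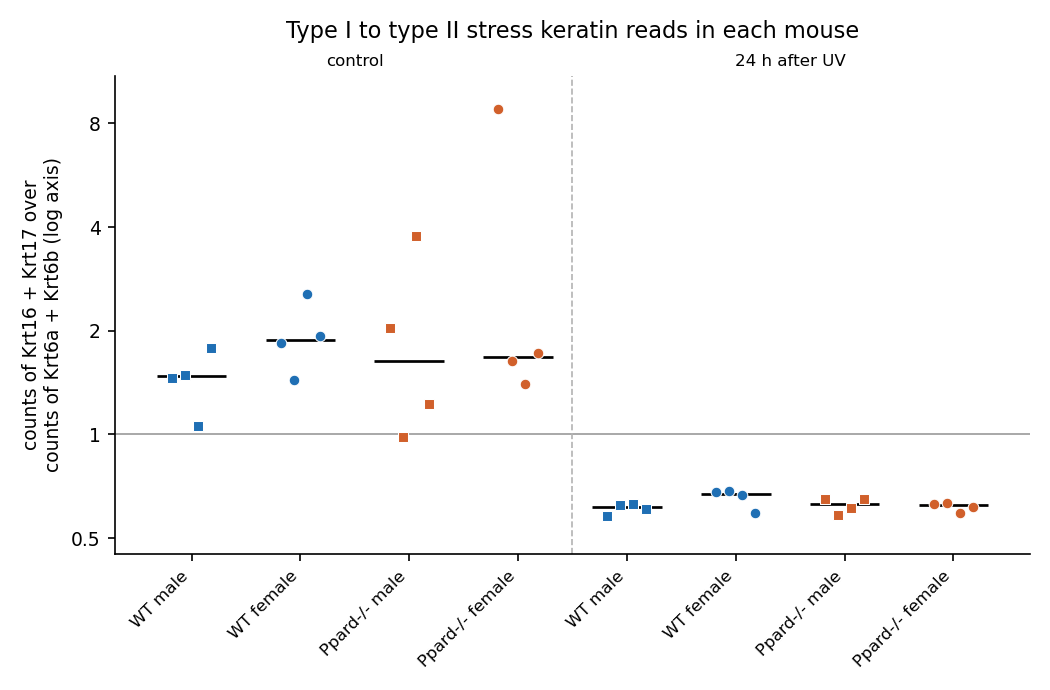
Ratio of type I (Krt16 plus Krt17) to type II (Krt6a plus Krt6b) read counts in each of the 32 mice on a log axis, by genotype, sex and treatment. Each point is 1 mouse and each bar a group median. Control mice spread from 0.982 to 8.82 and UV-exposed mice lie between 0.581 and 0.686, below every control.

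Within the type II pair, the ratio of Krt6b to Krt6a counts was 0.269 to 1.17 in wild-type controls and 0.509 to 0.689 after UV, and 0.0818 to 1.17 and 0.508 to 0.760 in Ppard-/- mice. The change was -0.19 on the log2 scale in wild-type mice (exact permutation p = 0.387) and 0.02 in Ppard-/- mice (p = 0.998). Each turned on a control female: without 61F the wild-type change was -0.35 (exact permutation p = 0.00694), and without 44F the Ppard-/- change was -0.38 (p = 0.00612), both unadjusted. These are the lowest values among the omissions of each mouse in turn. The mice were picked after all omissions were seen, so these p-values show dependence on single mice and do not test a change. Within the type I pair, the ratio of Krt16 to Krt17 was 0.341 to 1.58 in wild-type controls and 1.19 to 1.49 after UV, and 0.192 to 2.55 and 1.14 to 1.64 in Ppard-/- mice. The change was 0.55 in wild-type mice (exact permutation p = 0.0522, adjusted p = 0.261) and 0.21 in Ppard-/- mice (p = 0.677). Leaving out 43M, 56M, 57M, 63F or 71M brought the wild-type p under 0.05, with changes of up to 0.73. These mice too were picked after all omissions were seen.

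Set against the basal pair, the ratio of the 4 stress keratins to Krt5 plus Krt14 counts was 0.0968 to 0.793 in wild-type controls and 2.54 to 3.52 after UV. In Ppard-/- mice it was 0.156 to 1.05 and 2.10 to 3.05. The rise was 3.21 and 2.55 on the log2 scale. Against the suprabasal pair Krt1 plus Krt10 it went from 0.0232 to 0.119 up to 3.46 to 8.58 in wild-type mice and from 0.0156 to 0.184 up to 2.20 to 13.9 in Ppard-/- mice, a rise of 6.61 and 6.68.

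The other keratins of the epidermis mostly did not rise. Of the basal list (3 genes), Krt14 rose from 5356 ± 1569 (SD) to 17499.5 ± 3687 cpm in wild-type mice, a log2 fold change of 1.70 ± 0.22 (SE). Krt15, a keratin of basal and follicle stem cells, fell by 6.08 ± 0.30, from 258 to 3.91 cpm. Krt5 fell in wild-type mice (-0.50 ± 0.18, edgeR adjusted p = 0.0157) and was at 0.25 ± 0.18 in Ppard-/- mice (adjusted p = 0.223). Of the 7 suprabasal genes, 6 fell and 1 rose in each genotype, with a median of -2.26 in wild-type and -2.81 in Ppard-/- mice, beside -0.01 and 0.09 over all genes. Krt1 fell by 2.41 ± 0.23, Krt10 by 2.17 ± 0.21 and Krt77 by 3.78 ± 0.35 in wild-type mice, and Krt80 was the gene that rose (0.53 ± 0.11).

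Keratins of the hair follicle and of other epithelia were described as well. Krt75, a keratin of the follicle's companion layer that lies in the same cluster as Krt6a, rose from 3.70 ± 3.51 to 20.2 ± 13.6 cpm in wild-type mice and from 5.29 ± 3.65 to 18.7 ± 6.10 cpm in Ppard-/- mice. Krt79, a keratin of the upper follicle and the other gene of that list, was more abundant and did not rise. Its means were 902 cpm before and 768 cpm after UV in wild-type mice (-0.25 ± 0.24 (SE), edgeR adjusted p = 0.357), and it fell by 0.80 ± 0.24 in Ppard-/- mice (adjusted p = 0.00436). Krt18, a keratin of simple epithelia, went from 0.074 to 2.55 cpm. Of 14 tested keratins of the inner root sheath and hair shaft, edgeR called 0 in either genotype with the sexes averaged. By stratum it called 1 higher in wild-type females and 0 in the others. Single UV-exposed mice reached up to 255 cpm (Krt71), and neither mucosal keratin (Krt4, Krt13) passed the expression filter. Of 7 tested hair follicle markers, 3 rose and 4 fell in wild-type mice, and 2 rose and 2 fell in Ppard-/- mice. Over all genes, 34.5% and 37.3% were called higher and 36.5% and 33.5% lower in wild-type and Ppard-/- mice. The summed follicle markers overlapped between control and UV-exposed mice (120 to 226 and 134 to 426 cpm). The part of follicle cells in the stress keratin levels was not tested.

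**Figure D5:**
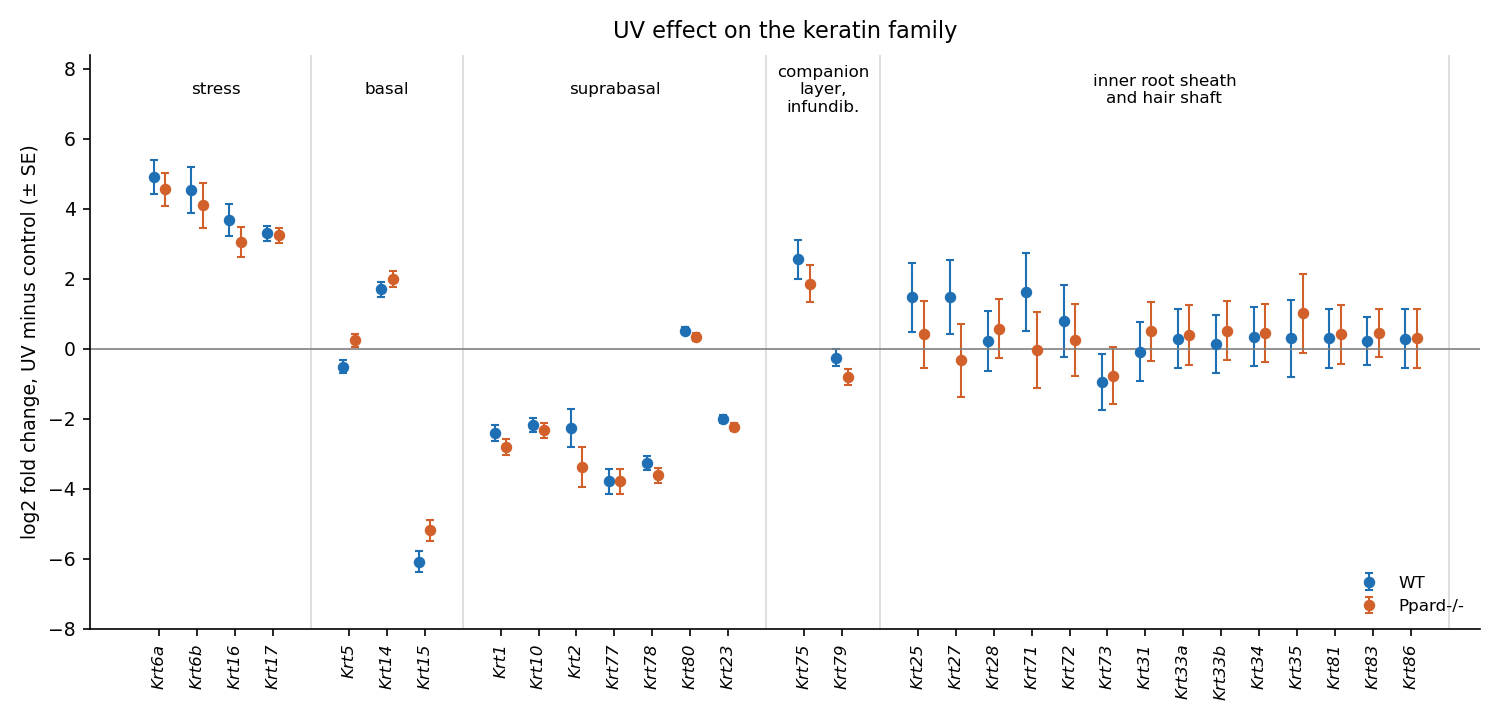
Log2 fold change (UV over control) of the stress keratins and of other keratin groups in wild-type and Ppard-/- mice, as edgeR estimates with bars of plus and minus 1 standard error. The 4 stress keratins lie between 3.05 and 4.91, Krt14 at 1.70 and 2.00, and most suprabasal keratins below 0. Keratins of simple epithelia, of which 1 of 3 tested rose in each genotype, and keratins below the expression filter are not drawn.

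Genes for proteins that anchor or bind keratin filaments moved in both directions. Of 11 such genes, 2 rose and 6 fell in each genotype, with medians of -0.29 and -0.25, beside 34.5% and 37.3% of all genes higher and 36.5% and 33.5% lower in wild-type and Ppard-/- mice. Ppl, the cornified envelope and desmosome linker periplakin, fell by 1.03 ± 0.11 (SE) in wild-type and by 1.36 ± 0.11 in Ppard-/- mice, and Dsp, the desmosomal linker desmoplakin, by 0.47 ± 0.10 and 0.65 ± 0.10. Sfn, the 14-3-3 protein that binds KRT17 and KRT18, rose by 0.81 ± 0.10 and 0.59 ± 0.10.

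Signals known to induce stress keratins were described by ligand, receptor and transcription factor. Over all genes, 34.5% were called higher and 36.5% lower in wild-type mice, and 37.3% and 33.5% in Ppard-/- mice. Of 9 tested ligands, 7 rose and 1 fell in wild-type mice and 6 rose and 2 fell in Ppard-/- mice, with medians of 2.24 and 2.18. The ligands with the largest rise in wild-type mice were Epgn, Hbegf and Areg, which bind the EGF receptor. Epgn rose by 4.35 ± 0.24 (SE) in wild-type mice and 3.90 ± 0.23 in Ppard-/- mice, Hbegf by 4.24 ± 0.17 and 3.75 ± 0.16, and Areg by 3.99 ± 0.16 and 3.04 ± 0.15. Areg was the ligand whose UV effect differed between genotypes (-0.95 ± 0.20, edgeR adjusted p = 0.0193), with control means of 6.29 ± 1.62 (SD) cpm in wild-type and 10.3 ± 2.70 cpm in Ppard-/- mice. Il1b rose from 2.05 to 21.0 cpm in wild-type and from 1.57 to 38.7 cpm in Ppard-/- mice, where its log2 fold change of 4.46 ± 0.37 was the largest of the list. Btc, also an EGF receptor ligand, fell by 1.24 ± 0.32 and 0.84 ± 0.32.

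Of the 6 receptors, 2 rose and 4 fell in wild-type mice and 1 rose and 4 fell in Ppard-/- mice. For these and the transcription factors below, the shares of all genes were 34.5% and 37.3% higher and 36.5% and 33.5% lower. Il20rb, a chain of the interleukin 20 family receptors, fell by 3.66 ± 0.11 (SE), from 580 to 45.9 cpm in wild-type mice, and Il17ra rose by 1.29 ± 0.08. Egfr was at 0.33 ± 0.09 in wild-type mice, which passed, and at 0.04 ± 0.09 in Ppard-/- mice, which did not, and the difference between them did not pass (edgeR adjusted p = 0.186). Of 14 transcription factors, 9 rose and 1 fell in wild-type mice and 10 rose and 0 fell in Ppard-/- mice. The AP-1 subunit gene Fosl1 rose by 5.18 ± 0.41 and 4.49 ± 0.39, from 5.29 to 189 cpm in wild-type mice, and the NF-κB subunit gene Rela by 2.06 ± 0.10 and 2.00 ± 0.10. Stat3 was at 0.17 ± 0.09 and -0.11 ± 0.09 and did not pass.

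All 14 genes of the list of other activated keratinocyte genes rose in both genotypes, with medians of 4.11 and 4.37. Of all genes, 34.5% in wild-type and 37.3% in Ppard-/- mice were called higher. Inhba, a subunit of activin, rose by 6.41 ± 0.35 (SE) and 6.97 ± 0.36, and Slpi, a secreted protease inhibitor, by 6.07 ± 0.38 and 6.02 ± 0.38. Sprr1a, a cornified envelope precursor, rose from 93.7 ± 69.2 (SD) to 2014 ± 355 cpm in wild-type mice. The smallest change of the list was that of Lcn2, at 2.44 ± 0.42 and 3.14 ± 0.44. Lists were chosen for their known link to keratinocyte activation and with earlier results of these data known, so their counts are not independent support.

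The genes most like the 4 members were found by Pearson's r with the members' mean log2 cpm over the 32 mice, with group means subtracted, among genes averaging at least 10 counts. The first 8 were Gpc1 (0.925), Cdhr1 (0.917), Gjb1 (0.916), Gm5416 (0.916), Gsdmc (0.905), Gjb2 (0.903), Gm45518 (0.902) and Sprr2a3 (0.90). They followed the members mainly through the control mice: r for Gpc1 was 0.956 over controls and 0.123 over UV-exposed mice, and for Gsdmc, a pore-forming gasdermin, 0.965 and 0.758. Of these 8 genes, 5 also rose after UV in both genotypes. In wild-type and Ppard-/- mice the log2 fold changes were 2.09 and 2.36 for Cdhr1, 2.71 and 2.00 for Gjb1, 4.59 and 4.43 for Gm5416, 3.81 and 3.17 for Gjb2 and 3.41 and 2.87 for Gm45518. Gjb2, the gap junction protein connexin 26, went from a median of 99.8 to 1653 cpm in wild-type mice. The other 3 did not rise. Gpc1 was at 0.07 in wild-type mice (edgeR adjusted p = 0.696), Gsdmc was at 0.33 (adjusted p = 0.342), and Sprr2a3 fell by 2.44 in wild-type and by 2.91 in Ppard-/- mice. Without subtracting group means, which adds the UV effect, the first 5 were Gm5416 (0.986), Gm45518 (0.985), Aldh1a3 (0.981), Sprr2f (0.980) and Gjb6 (0.980). Gm5416 and Gm45518 were low, with medians after UV of 44.4 and 11.2 cpm in wild-type mice.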

How the data were processed

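The authors deposited 1 table of raw read counts per gene for each of 32 mice. Per the labels and the study's methods, single-end reads of stranded poly(A) libraries were trimmed with cutadapt 1.8, aligned with STAR 2.5.3a and counted with HTSeq 0.9.1, with GRCm38 as the build in the submitters' processing notes. The study's methods write a human build name, while all identifiers are of mouse genes. Reads without a unique alignment or gene (tool summary rows) were left out of library sizes. No label gave a batch, and 0 pairs of libraries were identical. Symbols came from GENCODE M21, which held 55141 of 55401 identifiers. Counts were scaled by TMM, filtered at 1 cpm in 1 mouse and tested with edgeR 4.0.16 quasi-likelihood (R 4.3.3, Benjamini-Hochberg over 15546 genes, threshold 0.05) on 8 group means of all 32 mice. The study's own limma-trend (limma 3.58.1) and DESeq2 1.42.0 were alternatives. The code was tested on simulated counts. RPKM used merged exon lengths. Named genes were the members, Ppard, the largest and smallest changes within fixed lists, and genes most correlated with the members. Other list genes named beside them were chosen after their values were seen. Members and lists were chosen with earlier results of these data known.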

Additional observations from a re-analysis of the deposited data

Results flagged for a closer look

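In 72 groups of 4 mice tested for a value far from the others (Dixon's criterion), 9 values stood apart, and chance alone gives about 1 in 20 groups. The groups hold the 4 genes and ratios built from their counts, so the values are not independent and that rate is only a rough guide. Of the 9 values, 6 belong to the Ppard-/- control female 44F, and her ratios rest on the same low counts. Her log2 cpm was 6.38 for Krt6a, 2.77 for Krt6b and 7.0 for Krt16. Her log2 ratio was -3.61 for Krt6b to Krt6a, -2.38 for Krt16 to Krt17 and 3.14 for type I to type II counts. Her Krt17 level, 665 cpm, did not stand apart. The same library had the highest dermal fibroblast marker sum among control mice, 97.3 cpm, and the part of this in her keratin levels was not tested. The wild-type UV-exposed male 38M stood apart for Krt6b, at a log2 cpm of 13.4, and for Krt6b to Krt6a, at a log2 ratio of -0.975. His library had the highest skeletal muscle marker sum among UV-exposed wild-type mice, 2246 cpm beside a group median of 15.2 cpm. The part of this in his keratin levels was not tested. The wild-type UV-exposed female 57F stood apart for the ratio of the 4 stress keratins to Krt5 plus Krt14, at 1.81 on the log2 scale.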

How the results depend on the processing

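The UV effect on each stress keratin kept its direction and its call in both genotypes and in all 4 strata under each scaling, filter and tool and without each mouse in turn. Over all results on the members, 532 values kept direction and call under other settings, 11 turned and 4 moved, and none of the turned values had passed the test. With limma-trend the genotype difference in controls was -0.097 for Krt6a and -0.21 for Krt6b, and the genotype-by-UV difference 0.017 and 0.23. The genotype difference of Krt6b after UV was -0.0041 with keratins left out of the scaling, -0.0036 with filterByExpr, -0.0097 with no filter and -0.035 with Krt6a and Krt6b summed. For Krt17, the sex difference after UV was -0.0040 in wild-type mice with no filter and 0.065 in Ppard-/- mice with total counts, and the genotype-by-UV difference 0.00028 with total counts. The 4 values that moved are those of the stress keratin ratio against Krt1 plus Krt10 in place of Krt5 plus Krt14. The change with UV became 6.61 and 6.68 in wild-type and Ppard-/- mice in place of 3.21 and 2.55. The genotype difference after UV became 0.075 in place of -0.16, and that in the UV effect 0.068 in place of -0.66, so the sign of each changed. No test was run on these ratios. The cause was not tested.

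Leaving out each mouse in turn changed the reading of the differences below, none of which had passed. Their ranges crossed 0 except for both UV changes of a ratio in wild-type mice, where the permutation p fell under 0.05. The other differences that had not passed kept their direction without each mouse. For Krt16 the genotype difference in controls stayed at 0.37 to 0.96 and the genotype-by-UV difference at -1.02 to -0.42. For the genotype difference they were -0.047 to 0.52 (Krt6a, controls), -0.16 to 0.060 (Krt17, controls), -0.068 to 0.10 (Krt6b, UV) and -0.14 to 0.0012 (Krt16, UV). For Krt17 they were -0.12 to 0.086 (sex, wild-type UV), -0.19 to 0.068 (genotype by UV) and -0.040 to 0.28 (sex by UV, Ppard-/-). For Krt6b to Krt6a they were -0.35 to -0.088 and -0.38 to 0.18 (UV in wild-type and Ppard-/- mice), -0.27 to 0.29 (genotype, controls) and -0.19 to 0.38 (genotype by UV). For Krt16 to Krt17 they were 0.39 to 0.73 and -0.14 to 0.38 (UV in wild-type and Ppard-/- mice) and -0.012 to 0.050 (genotype, UV).

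Counts of called genes moved more. For the genotype difference after UV the 514 became 1116 (DESeq2), 260 (limma), 263 (no filter) and 40 (UV-exposed mice alone, added after seeing the data, 8 of them higher against 418 of the 514), and 133 to 983 without a mouse. In controls the 32 became 78 (DESeq2) and 15 (controls alone), and 20 to 45 without a mouse. For genotype by UV the 119 became 792 (DESeq2) and 55 (no filter), and 56 to 346. For sex in Ppard-/- controls the 598 became 1014 (DESeq2), 231 (filterByExpr), 79 (no filter) and 242 (Ppard-/- mice alone), and 58 to 783. In Ppard-/- UV mice the 2066 became 1152 and 875 (mice of the same genotype or treatment alone), and 446 to 2663. For sex in wild-type mice the 11 became 30 (DESeq2, controls), and the 12 became 24 (DESeq2) and 7 (UV-exposed mice alone). The split of higher calls also moved with the scaling. For sex in Ppard-/- controls 182 of 598 became 175 of 417 (RLE), 150 of 278 (no keratins) and 454 of 480 (total counts), and in Ppard-/- UV mice 1390 of 2066 became 1299 of 2274, 1238 of 2485 and 2041 of 2370. For the genotype difference after UV 418 of 514 became 376 of 535 (RLE) and 383 of 665 (no keratins), in controls 23 of 32 became 16 of 29 (total counts), and for genotype by UV 80 of 119 became 76 of 135, 78 of 142 and 92 of 119. For sex in wild-type UV mice 4 of 12 became 6 of 13 (total counts). The median of all genes shifted by over 0.1 in 3 cases: by 0.19 and 0.12 with total counts for sex in Ppard-/- controls and UV mice, and by -0.10 without keratins for sex by UV in Ppard-/- mice. Sex-by-UV calls were 0 in each genotype, 0 to 2 in Ppard-/- mice without a mouse and 1 with Ppard-/- mice alone. No paired analysis was possible because the groups hold different mice and share no replicate labels.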
